A study of Mus musculus with 85 samples.

Results

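The 40 genes described here encode proteins of the lysosome and of autophagy other than the cathepsins: membrane proteins (5 genes), lipid handling (6), enzymes that cut glycans and sulfates (10), protein turnover (4), transcription factors (2), the proton pump (4) and the autophagy machinery (9). They were listed by gene name, with earlier results of these data known, and each was read as the sum of all table rows that carry its symbol. All 40 were found, on 44 rows, among 53890 loci in the deposited table, and all 40 were at or above 1 FPKM (fragment counts normalised for transcript length and for library size) in at least 10 mice. They are therefore 40 of the 21141 loci tested. The 85 mice, 1 RNA library each, were 8 months old and the tissue was hippocampus. Control mice were C57BL/6J on standard feed (11 males, MWT, and 10 females, FWT) or on methionine-restricted feed (10 males, MWTMR, and 10 females, FWTMR). Transgenic mice, which the labels call AD, ate standard feed (11 males, MAD, and 11 females, FAD) or methionine-restricted feed (11 males, MADMR, and 11 females, FADMR). The transgene of this line carries amyloid precursor protein behind the promoter of Prnp, so it is not under the control of the App gene's own promoter.

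The Prnp locus, which also holds Prn and Prnd, was at 857 to 1488 FPKM (median 1180) in the 44 AD mice and at 225 to 444 FPKM (median 331) in the 41 control mice, with no overlap, so every library matched its genotype label. All 8 hippocampal markers looked up, among them Neurod6 at a mean of 2128 FPKM and Prox1 at 8.02 FPKM, were above 0 in all 85 libraries. Total FPKM per library ran from 939248 to 1066927. Read depth is unknown because the deposited values hold no counts, so precision rests on the spread between mice. Markers of the choroid plexus varied, with a summed level of the 8 listed from 3.61 to 1698 FPKM. The labels name no batch, litter or sequencing run.

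Lysosomes are acidic organelles in which hydrolases break down lipids, glycans and proteins delivered by endocytosis and by autophagy, the enclosure of cytoplasm in a double membrane that then fuses with the lysosome. Acidity is maintained by the vacuolar proton pump. The transcription factors TFEB and TFE3 switch on many lysosomal genes through an E-box of the form CACGTG in their promoters. In the brain, inherited loss of many of these enzymes causes lysosomal storage disease with loss of neurons, and microglia, the resident phagocytes, are rich in lysosomes.

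The promoter windows of 34 of the 40 genes (250 bases before to 50 bases after the start site; RefSeq, GRCm38.p6) were searched for CACGTG, which reads the same on both strands. Npc1, Becn1, Map1lc3a, Cstb, Atp6v1b2 and Asah1 were not matched. Cln3, Psap, Tfe3 and Tfeb had more than 1 window, and a gene was counted if any of its windows held the motif. The motif was found for 12 of the 34 genes (35.3%), against 8.09% of 27025 genes. The longer form CACGTGAC, searched on both strands and overlapping the first, was found for 9 genes (26.5%), against 2.55% of all. The 12 genes with the motif were Atg5, Atg7, Atp6v0d1, Atp6v1a, Cln3, Gaa, Gla, Glb1, Lamp1, Mcoln1, Naglu and Sgsh. The first 3 windows below are shown as those of membrane proteins with more than 1 match (the Gla window also held 2), and the last 3 as windows of genes whose level was higher in AD females. Lamp1 (chr8:13158911-13159210, plus strand) encodes a coat protein of the lysosomal membrane, Mcoln1 (chr8:3500269-3500568, plus strand) its calcium channel, and Cln3 (chr7:126583187-126583486, minus strand) a membrane protein lost in juvenile Batten disease. The Cln3 window shown belongs to a start site inside the gene. Its other window, at the gene's annotated start (chr7:126585768-126586067), held 0 matches. Grn (chr11:102430257-102430556, plus strand) encodes progranulin, Hexa (chr9:59539290-59539589, plus strand) the alpha chain of beta-hexosaminidase, and Tpp1 (chr7:105752186-105752485, minus strand) tripeptidyl peptidase. Capitals mark CACGTG, and sequences run 5′ to 3′ on the gene's strand.
Lamp1: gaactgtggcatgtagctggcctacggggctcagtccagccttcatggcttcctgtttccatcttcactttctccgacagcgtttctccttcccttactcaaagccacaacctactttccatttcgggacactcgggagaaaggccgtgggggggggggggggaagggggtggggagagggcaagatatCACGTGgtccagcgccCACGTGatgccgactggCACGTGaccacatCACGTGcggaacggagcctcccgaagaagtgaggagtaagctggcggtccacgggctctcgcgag
Mcoln1: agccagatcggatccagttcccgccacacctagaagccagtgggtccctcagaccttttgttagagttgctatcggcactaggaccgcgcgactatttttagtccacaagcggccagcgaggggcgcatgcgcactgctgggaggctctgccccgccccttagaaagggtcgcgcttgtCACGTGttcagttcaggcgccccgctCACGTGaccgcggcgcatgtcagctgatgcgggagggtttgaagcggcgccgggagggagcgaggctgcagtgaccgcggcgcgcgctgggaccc
Cln3: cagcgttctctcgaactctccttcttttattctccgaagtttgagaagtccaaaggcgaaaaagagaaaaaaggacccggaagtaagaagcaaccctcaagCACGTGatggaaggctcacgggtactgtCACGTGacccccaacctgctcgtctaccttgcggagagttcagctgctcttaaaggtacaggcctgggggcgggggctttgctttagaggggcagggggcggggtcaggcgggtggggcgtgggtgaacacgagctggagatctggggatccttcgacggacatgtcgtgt
Grn: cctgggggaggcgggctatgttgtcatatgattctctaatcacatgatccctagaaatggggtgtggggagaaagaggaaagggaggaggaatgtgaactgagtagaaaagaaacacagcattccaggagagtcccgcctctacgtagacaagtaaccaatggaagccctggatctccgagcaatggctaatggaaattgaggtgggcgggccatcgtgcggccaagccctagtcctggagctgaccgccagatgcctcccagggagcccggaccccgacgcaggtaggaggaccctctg
Hexa: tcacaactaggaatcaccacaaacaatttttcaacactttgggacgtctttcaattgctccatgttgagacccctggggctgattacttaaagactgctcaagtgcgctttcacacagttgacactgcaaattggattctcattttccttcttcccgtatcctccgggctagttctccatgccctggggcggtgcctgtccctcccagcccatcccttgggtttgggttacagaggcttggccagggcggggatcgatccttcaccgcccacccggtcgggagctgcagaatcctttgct
Tpp1: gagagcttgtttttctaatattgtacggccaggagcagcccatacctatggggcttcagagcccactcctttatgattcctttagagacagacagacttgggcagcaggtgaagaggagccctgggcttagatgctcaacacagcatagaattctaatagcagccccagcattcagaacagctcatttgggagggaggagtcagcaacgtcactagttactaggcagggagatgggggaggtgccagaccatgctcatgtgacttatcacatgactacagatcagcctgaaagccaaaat
Lamp1 held 4 matches, starting 61, 45, 28 and 15 bases before the start site. The Grn, Hexa and Tpp1 windows held none.

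The 40 genes spanned a wide range of levels in this tissue. Per length of transcript, the proton pump subunit Atp6v1a was highest, at a median of 562.5 FPKM over the 85 mice, followed by the autophagy receptor Sqstm1 at 229.9 and the ganglioside activator Gm2a at 194 FPKM. At the low end were the autophagosome protein Wipi1 at 0.905 FPKM and Tfeb at 1.15 FPKM. Glb1, which encodes beta-galactosidase, varied least between mice (coefficient of variation 8.12%), and Ulk1, the kinase that starts autophagy, varied most (47.4%). Some values are shared with other genes: the rows of Npc2, Asah1, Glb1, Naglu and Atp6ap1 also hold Syndig1l, Frg1, Tmppe, Hsd17b1 and Taz, in that order, and cannot be split. Neu1 was summed over 4 rows, of which that with a mean of 13.7 FPKM was at 0 in 23 libraries.

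A few lysosomal genes were higher in AD than in control mice, by small amounts, and more of them passed the test in females than in males. Averaged over sex and feed, 3 of the 40 genes were higher and 0 lower, in limma with Benjamini-Hochberg adjustment over all 21141 loci and a threshold of 0.05 (7.5% of the genes, against 1.70% of all loci either way and 1.22% higher). They were Grn, Man2b1 and Tpp1. In females, averaged over feed, 7 genes were higher and 0 lower (17.5% against 3.13% either way and 1.70% higher): Grn, Hexa, Gusb, Lamp2, Npc2, Man2b1 and Tpp1. In males 0 of 40 passed by limma (0% against 0.497%). The median log2 difference of the 40 genes was 0.10 in females and -0.0055 in males, against 0.0054 and -0.0036 over all loci, and 37 of 40 differences in females and 18 of 40 in males were above 0. At an unadjusted p under 0.05 there were 12 genes in females (30% against 21.8% of loci) and 2 in males (5% against 14.4%), and 8 over both sexes (20% against 13.2%), of which Gusb, Lamp2, Hexa, Npc2 and Wipi1 missed the adjusted threshold.

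**Figure D1:**
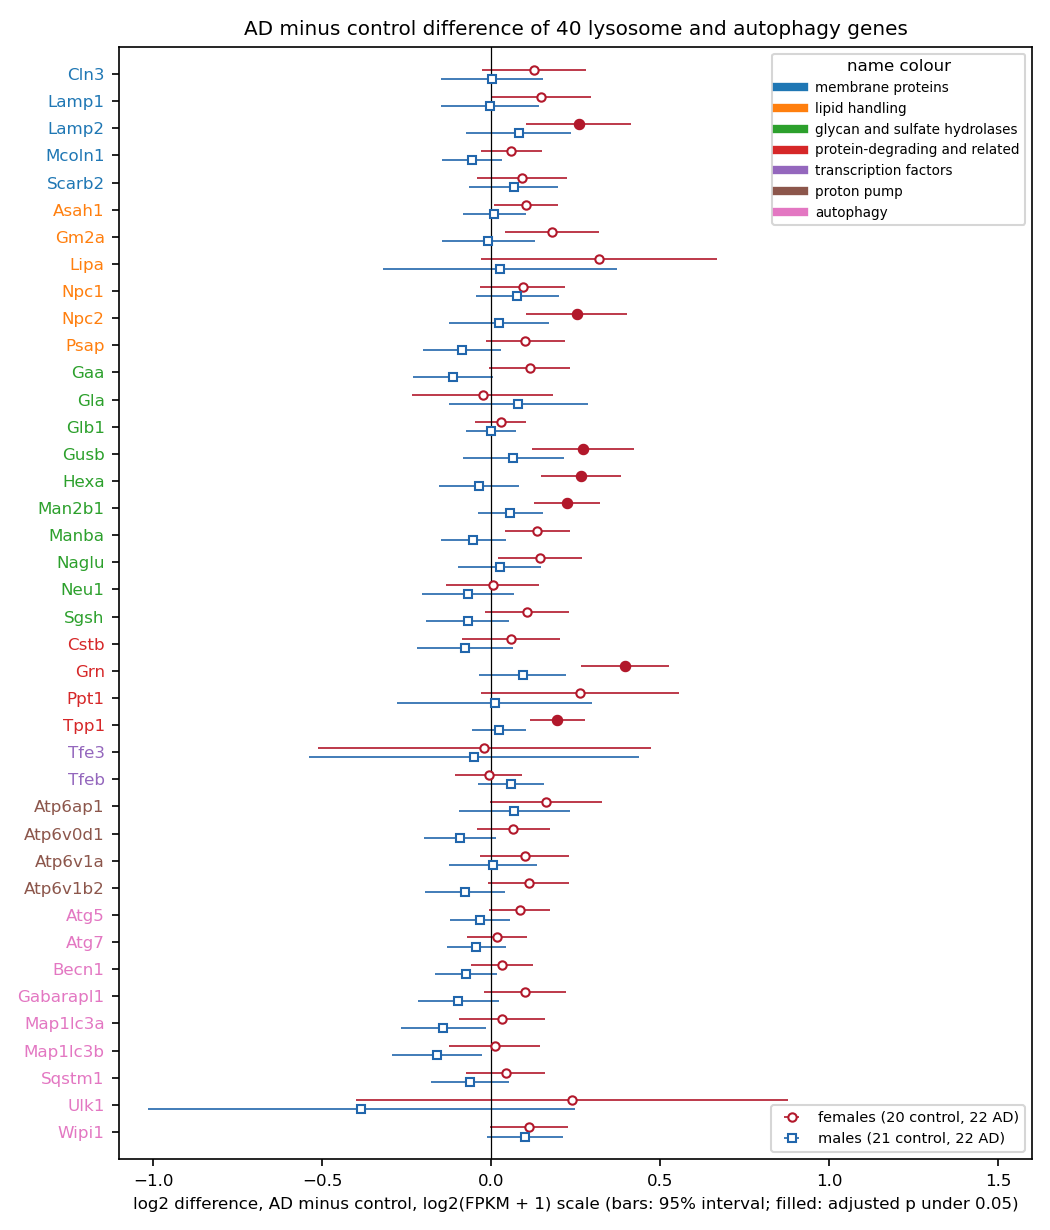
Log2 difference between AD and control mice for each of the 40 genes, in females (red circles) and in males (blue squares), on the log2(FPKM + 1) scale, with 95% intervals. Gene names are coloured by role. Filled symbols passed the threshold, which 7 genes did in females and 0 in males.

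Among the proteins that act on other proteins, Grn stood out. It lies on chromosome 11 at 102430507 to 102436809 (GRCm38.p6), and progranulin is a secreted and lysosomal glycoprotein whose loss causes frontotemporal dementia and a storage disease in humans. Grn was at 12.3 to 16.6 FPKM (median 14.5) in FWT mice and at 13.4 to 24.0 FPKM (median 17.5) in FAD mice. On restricted feed it was at 12.3 to 15.8 FPKM (median 14.3) in FWTMR and at 17.1 to 24.4 FPKM (median 18.5) in FADMR mice. All 11 FADMR mice were above the highest FWTMR mouse, and 8 of 11 FAD mice were above the highest FWT mouse. In males the groups overlapped, with medians of 16.0 FPKM in MWT, 17.3 in MAD, 16.2 in MWTMR and 15.7 in MADMR. The log2 difference in females was 0.39 ± 0.07 (SE; adjusted p = 1.89e-05, limma), a ratio of 1.31, and in males 0.09 ± 0.06 (adjusted p = 0.52, limma). Grn was the only one of the 40 that passed on standard feed alone (FAD against FWT, 0.36 ± 0.09, adjusted p = 0.0435, limma; 2.5% against 0.549% of loci either way and 0.317% higher). That call was lost without any 1 of 14 libraries (FWT 1 to 6, 10 and 11, and FAD 1, 2, 7, 8, 10 and 11), with values from 0.32 to 0.40 over the 85 fits that left out 1 library each, and under 7 of 12 other settings, among them a pseudocount of 0.1 and no filter on low values (adjusted p = 0.0503 and 0.0623, limma).

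Tpp1, on chromosome 7 at 105744811 to 105752282, encodes an exopeptidase that is deficient in late-infantile Batten disease. It was at 25.3 to 30.9 FPKM (median 27.7) in FWT, 25.2 to 37.5 (median 31.5) in FAD, 23.4 to 31.1 (median 27.8) in FWTMR and 30.2 to 34.8 FPKM (median 30.7) in FADMR mice. The lowest FADMR mouse lay above the FWTMR median, while the FAD range enclosed that of FWT. The log2 difference in females was 0.20 ± 0.04 (adjusted p = 0.00149, limma) and in males 0.02 ± 0.04 (adjusted p = 0.83, limma). Ppt1, a thioesterase that strips fatty acids from proteins, was at 0.26 ± 0.15 in females (adjusted p = 0.288, limma), and Cstb, an inhibitor of cathepsins, at 0.06.

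Of the 10 glycan and sulfate hydrolases, 3 were higher in AD females. Hexa (chromosome 9, 59539540 to 59565109), whose product degrades GM2 ganglioside, was at 13.1 to 19.2 FPKM (median 15.4) in FWT and 14.5 to 29.7 FPKM (median 18.8) in FAD mice. It was at 12.4 to 17.6 FPKM (median 14.7) in FWTMR and 15.4 to 22.8 FPKM (median 18.9) in FADMR mice. The groups overlapped in each feed, but 8 of 11 FADMR mice were above the highest FWTMR mouse. The difference was 0.27 ± 0.06 in females (adjusted p = 0.00458, limma) and -0.04 ± 0.06 in males (95% interval -0.15 to 0.08). Man2b1 (chromosome 8, 85082730 to 85098739), which encodes lysosomal alpha-mannosidase, was at 2.74 to 4.16 FPKM (median 3.55) in the 20 control females and 3.24 to 5.38 FPKM (median 4.22) in the 22 AD females. Gusb (chromosome 5, 129989011 to 130003049), which encodes beta-glucuronidase, was at 5.27 to 11.1 FPKM (median 8.67) in control and 7.46 to 14.7 FPKM (median 10.3) in AD females. The ranges of both genes overlapped between the genotypes. The difference of Man2b1 was 0.22 ± 0.05 (adjusted p = 0.00363, limma), and that of Gusb 0.27 ± 0.08 (adjusted p = 0.0316, limma). The call of Gusb was lost without any 1 of 6 libraries (FWT 1, FAD 8, 10 and 11, FWTMR 5 and FADMR 10), where the adjusted p reached 0.0699 (limma). The other 7 did not pass: the mannosidase Manba was at 0.14, the heparan sulfate enzymes Naglu and Sgsh at 0.15 and 0.10, the glycogen enzyme Gaa at 0.11, and Glb1, the sialidase Neu1 and the galactosidase Gla at 0.03, 0.0045 and -0.02.

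Lamp2 was the 1 membrane protein of 5 that passed in females. It lies on chromosome X at 38399647 to 38456460 and encodes a coat protein that is also the receptor for chaperone-mediated autophagy. Lamp2 was at 53.0 to 93.1 FPKM (median 69.9) in FWT and 48.2 to 96.8 FPKM (median 78.9) in FAD mice. It was at 46.2 to 81.0 FPKM (median 62.5) in FWTMR and 66.0 to 99.0 FPKM (median 85.8) in FADMR mice. The FAD range enclosed that of FWT, while all 11 FADMR mice were above the FWTMR median. The difference over both feeds was 0.26 ± 0.08 (adjusted p = 0.0486, limma), and this call was lost in 47 of the 85 fits that left out 1 library, with adjusted p up to 0.0886, and under 9 of 12 other settings, each other scaling of the libraries included. On restricted feed alone it was 0.44 ± 0.11 (adjusted p = 0.0202, limma), a call lost without FWTMR 1, FWTMR 7 or FADMR 10 (adjusted p up to 0.0632). On standard feed it was 0.08 ± 0.11 (adjusted p = 0.805, limma). Lamp1, Cln3, Scarb2, the carrier of glucocerebrosidase, and Mcoln1 were at 0.15, 0.13, 0.09 and 0.06 in females and did not pass.

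Of the 6 genes that handle lipids, Npc2, a sterol carrier of the lysosome interior, passed in females. Its locus, joined with Syndig1l (Npc2 at chromosome 12, 84754559 to 84773112), was at 10.0 to 17.5 FPKM (median 12.98) in control and 11.1 to 27.3 FPKM (median 14.8) in AD females. The ranges overlapped, with 7 of 11 FADMR and 1 of 11 FAD mice above their highest control. The difference was 0.25 ± 0.08 (adjusted p = 0.0441, limma), a call lost in 19 of the 85 fits without 1 library (adjusted p up to 0.0816) and in 7 of 11 other settings, each other scaling included. Npc1, its membrane partner, was at 0.09, the sphingolipid activators Gm2a and Psap at 0.18 and 0.10, the acid ceramidase Asah1 at 0.10 and the acid lipase Lipa at 0.32 ± 0.18, and none of these passed.

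On restricted feed alone, 5 of the 40 genes were higher in FADMR than in FWTMR females (12.5% against 1.34% of loci either way and 0.927% higher): Grn (0.43), Lamp2 (0.44), Hexa (0.31), Man2b1 (0.30) and Tpp1 (0.22). The call of Hexa was lost without any 1 of 10 of the 21 libraries of these groups (FWTMR 3 to 7 and FADMR 2, 5, 7, 10 and 11), and that of Tpp1 without any 1 of 7 (FWTMR 1 and 5 to 7, and FADMR 5, 7 and 11), with adjusted p up to 0.0944 and 0.0958 (limma). Both calls were also lost with FPKM as deposited. In males 0 of 40 passed by limma on standard feed (0% against 0.0662%) or on restricted feed (0% against 0.123%), with 2 genes on each at an unadjusted p under 0.05 (5%, against 7.14% and 10.8%).

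**Figure D2:**
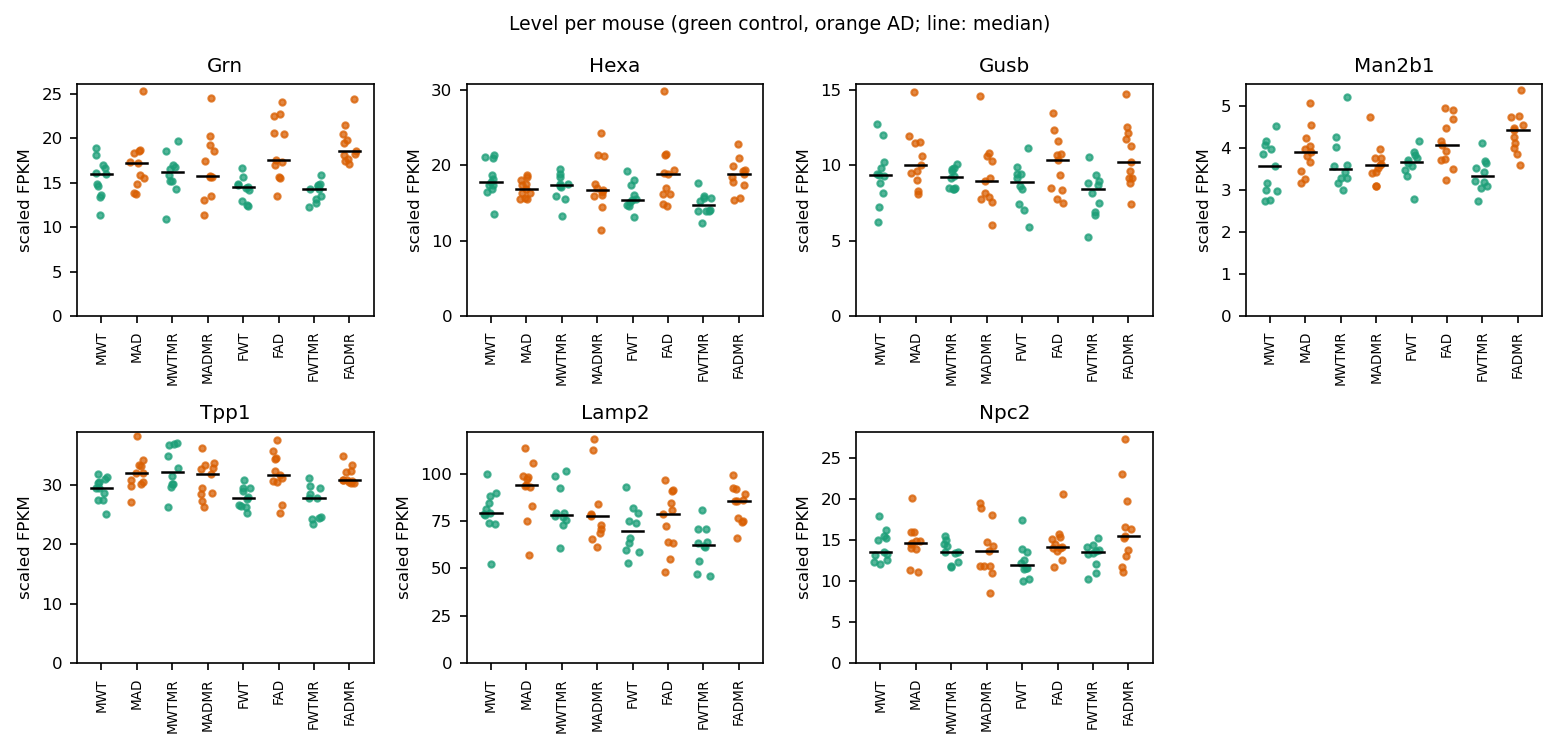
Scaled FPKM of the 7 genes that were higher in AD females, 1 point per mouse, in the 8 groups, with the group median as a line. In each panel the female AD medians (FAD, FADMR) lie above the medians of their controls (FWT, FWTMR), and the points of the male groups overlap.

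The sex difference of the genotype effect was tested directly and did not pass for any of the 40 (0% against 0.932% of loci). The nearest were Hexa, with an effect 0.30 ± 0.08 larger in females (adjusted p = 0.0531, limma), Grn (0.30 ± 0.09, adjusted p = 0.0647) and Tpp1 (0.17 ± 0.06, adjusted p = 0.0836). The effect was larger in females for 38 of 40 genes, against 54.6% of all loci, and 11 genes had an unadjusted p under 0.05 (27.5% against 22.2%). In 23 of the 85 fits that left out 1 library, 1 to 3 genes passed, and with libraries weighted by their quality 6 did (15%, against 12.1% of loci in that fit). The difference between the feeds in the genotype effect passed for 0 of 40 (0% against 0.00473%; smallest adjusted p = 0.936, for Ulk1, limma), with 0 at an unadjusted p under 0.05 (against 5.18%).

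None of the autophagy genes, pump subunits or transcription factors passed between the genotypes. Among the 9 autophagy genes, differences in females ran from 0.01 to 0.24 and in males from -0.38 to 0.10, with Ulk1 at 0.24 and -0.38. The family of ubiquitin-like proteins that coat the autophagosome gave the 2 male genes with an unadjusted p under 0.05. Map1lc3b was at 131 to 164 FPKM (median 147) in MWT, 117 to 169 (median 130) in MAD, 108 to 154 (median 138) in MWTMR and 74.9 to 180 FPKM (median 119) in MADMR mice. The AD males reached both lower and higher than the controls. The male differences were -0.16 ± 0.07 for Map1lc3b (adjusted p = 0.252, limma), -0.14 ± 0.06 for its close relative Map1lc3a (adjusted p = 0.289) and -0.10 ± 0.06 for Gabarapl1 (adjusted p = 0.471). Sqstm1, the receptor that carries ubiquitin-tagged cargo to them, was at -0.01 ± 0.04 over both sexes (95% interval -0.09 to 0.07). Among the 4 subunits and partners of the proton pump, Atp6ap1 (0.16), Atp6v1b2 (0.11), Atp6v1a (0.10) and Atp6v0d1 (0.07) did not pass in females. Tfeb was at 0.03 ± 0.04 (95% interval -0.04 to 0.10) and Tfe3 at -0.04 ± 0.17 (-0.38 to 0.31) over both sexes. Of the 7 genes that passed in females, 0 had CACGTG in the window searched, and of the 27 other genes with a window 12 did, against 8.09% of all genes. Other forms of the E-box were not searched, and control by TFEB or TFE3 was not tested.

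Microglia markers moved with the same contrast. Of 12 microglia markers tested (13 listed), 6 were higher in AD mice averaged over sex (50% against 1.70% of all loci). In AD females 6 were higher (50% against 3.13%) and in AD males 0 (0% against 0.497%). Of 13 markers of plaque-associated microglia tested (15 listed), 8 were higher in AD mice averaged over sex (61.5%), 7 in AD females (53.8%) and also 7 in AD males (53.8%). So the markers of this second list, unlike those of the first, passed in both sexes. The cell types behind these differences were not tested. The summed level of these 15 overlapped between the genotypes in each sex and feed, with medians of 1722 FPKM in FWT, 2086 in FAD, 1772 in FWTMR, 1975 in FADMR, 2013 in MWT, 2050 in MAD, 1993 in MWTMR and 1838 FPKM in MADMR mice. Apoe and Lpl, at means of 926 and 749 FPKM, made up most of this sum, so it says little about the low markers. Cst7, for example, was at 0.303 to 8.27 FPKM in AD and 0 to 0.109 FPKM in control mice, without overlap. The summed level of the 13 of the first list ran from 158 to 236 FPKM (median 197) in FWT, 189 to 372 (median 249) in FAD, 142 to 215 (median 173) in FWTMR and 224 to 463 FPKM (median 269) in FADMR mice. The FADMR and FWTMR sums did not overlap. In males the sum ran from 179 to 275 FPKM (median 225) in MWT, 209 to 301 (median 245) in MAD, 169 to 299.5 (median 222) in MWTMR and 136 to 362 FPKM (median 275) in MADMR mice. All 13 markers were above 0 in all 85 libraries, Fcrls, for example, at a mean of 17.2 FPKM and Tmem119 at 1.93 FPKM. With the mean log2 level of these markers as a covariate, 0 of the 7 genes passed in females. The share of all loci that passed fell from 3.13% to 0.114% in that fit, so the loss was not particular to these genes. Grn was then at 0.15 ± 0.07 (adjusted p = 0.774, limma) in place of 0.39, Tpp1 at 0.08, Man2b1 at 0.10, Lamp2 at 0.07, Hexa at 0.02, Gusb at 0.01 and Npc2 at -0.0040. In whole tissue, more cells of a type and more RNA per cell cannot be told apart. With the markers of choroid plexus, striatum, thalamus and meninges as covariates in place of the microglia markers, 4 of the 40 passed in females. In that fit 0.908% of all loci passed, also fewer than the 3.13% without covariates. Marker lists of other cells and tissues also held calls. Of 11 neuron markers 1 was higher in AD females (9.09%) and 0 in AD males, with median log2 differences of 0.13 and -0.05. Of 8 astrocyte markers 1 was higher in each sex (12.5%). Of 6 striatum markers tested 1 was higher in AD females (16.7%) and 0 in AD males. No fit used the neuron markers as a covariate.

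Within groups, many of the genes followed the markers of microglia or of neurons from mouse to mouse. After removal of the group means, the level of 27 of 40 genes rose with the mean of the 13 microglia markers over 85 mice (Pearson, permutation test, 80 relations in 2 families of 40, adjusted p under 0.05), and 27 rose with the mean of 11 neuron markers. The share of all loci that would pass this test was not computed, so these counts have no background. With each list 37 of 40 genes had r above 0, against 54.6% of all loci for microglia and 57.6% for neurons. Tfeb had r = -0.235 with the neuron markers (adjusted p = 0.045, permutation test), which did not pass by rank (rho -0.134, adjusted p = 0.253) and was -0.114 without the 2 farthest mice. The highest with microglia were Hexa (r = 0.645, Spearman rho 0.589), Gm2a (r = 0.62, rho 0.558), Lamp1 (r = 0.611, rho 0.546) and Grn (r = 0.597, rho 0.557). Each of these 4 had an unadjusted permutation p of 1e-05 for r and rho (adjusted 3.64e-05 and 5.71e-05), the smallest that 100000 permutations can give. They were positive in all 8 groups, at 0.691, 0.667, 0.669 and 0.583 in males and 0.598, 0.558, 0.562 and 0.631 in females. Without the 2 mice farthest from the median marker level they stayed at 0.635, 0.615, 0.602 and 0.581. In all, 9 genes had r above 0.5 (22.5%, against 1.22% of all loci). Markers and genes share libraries.

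With the neuron markers, 10 genes had r above 0.5 (25%, against 10.7% of all loci, a higher background than for microglia). The highest were the pump subunits Atp6v1b2 (r = 0.89, rho 0.885), Atp6v0d1 (r = 0.812, rho 0.835) and Atp6v1a (r = 0.749, rho 0.761), and the autophagy genes Gabarapl1 (r = 0.805, rho 0.82) and Atg5 (r = 0.771, rho 0.753), which encodes part of the complex that attaches LC3 proteins to lipid. Each had a permutation p of 1e-05 (adjusted 4e-05 for r and 3.08e-05 for rho) and was positive in all 8 groups. Without the 2 farthest mice r was 0.858, 0.777, 0.701, 0.779 and 0.723 in the same order. The median over the 9 autophagy genes was 0.433 with neurons and 0.244 with microglia, over the 4 pump genes 0.781 and 0.264, and over the 6 lipid genes 0.283 and 0.502. Of the 7 genes that passed in AD females, Lamp2, Npc2 and Gusb did not pass with the neuron markers by Pearson (r = 0.0597, 0.21 and 0.191). Npc2 and Gusb did by rank (rho 0.237 and 0.244, adjusted p = 0.0395 and 0.0355, permutation test). All 7 passed with the microglia markers (r from 0.374 to 0.645), but so did 27 of all 40 genes, and the share of all loci is unknown. The marker means themselves had r = 0.158 with each other. Across the 780 pairs of genes, the highest r was between Lamp1 and Scarb2 (0.942, rho 0.92), then between Atp6v0d1 and Gabarapl1 (0.915, rho 0.918), both with an adjusted permutation p of 4.24e-05.

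**Figure D3:**
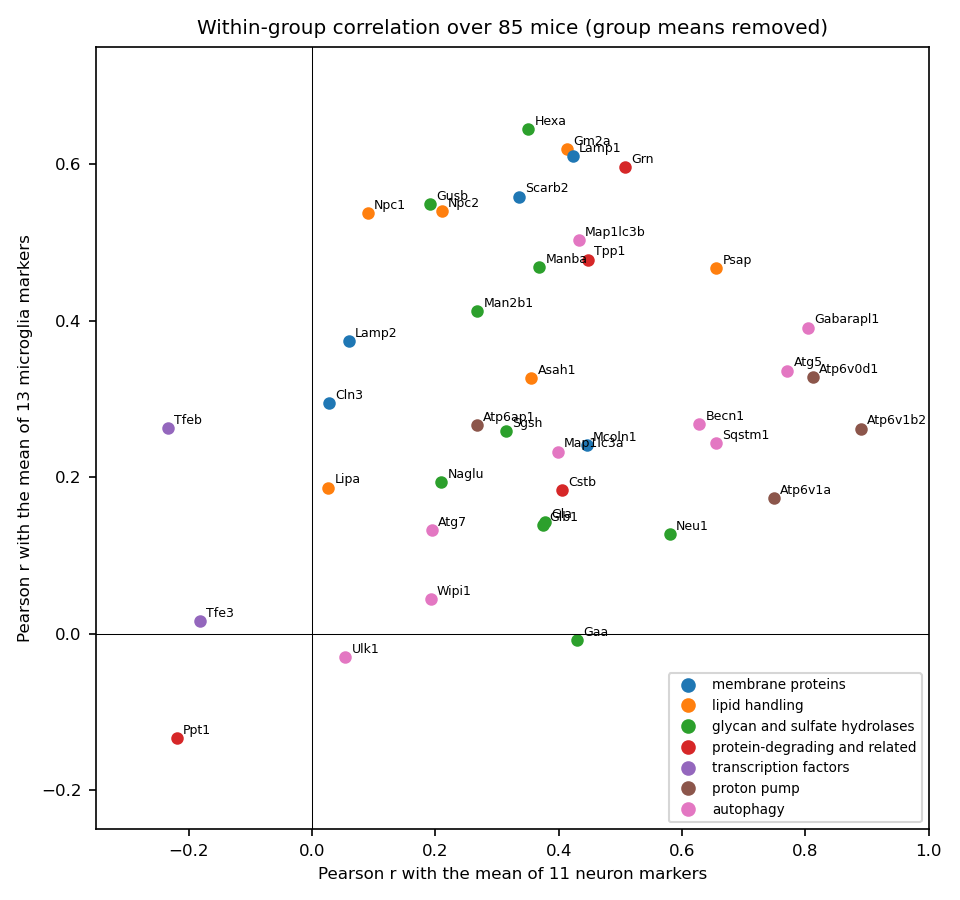
Pearson r of each of the 40 genes with the mean of 11 neuron markers (horizontal axis) and of 13 microglia markers (vertical axis) over 85 mice after removal of group means, coloured by role. Hexa, Gm2a, Lamp1 and Grn lie at the top, and 3 pump genes with Gabarapl1 and Atg5 at the right.

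Restricted feed moved none of the 40 genes past the threshold. Averaged over sex and genotype, 0 of 40 passed (0% against 0.118% of loci), with a median log2 difference of -0.02 and 1 gene at an unadjusted p under 0.05 (2.5% against 7.26%). Within control males, AD males, control females and AD females, 0 of 40 passed in each by limma (against 0%, 0.0142%, 0.0662% and 0.0142% of loci). At an unadjusted p under 0.05 these 4 comparisons held 1, 0, 1 and 2 of the 40, against 6.62%, 5.85%, 6.98% and 6.07% of loci. The 4 genes with the smallest p in the average were Ulk1 (-0.59 ± 0.23, adjusted p = 0.468, limma), Manba (-0.05 ± 0.03), Glb1 (-0.04 ± 0.03) and Cln3 (-0.08 ± 0.05), the last 3 with adjusted p from 0.791 to 0.83. Manba and Glb1 had 95% intervals of -0.12 to 0.01 and -0.09 to 0.01. The 7 genes higher in AD females gave feed differences within AD females with adjusted p from 0.881 upwards. The difference of the feed effect between the sexes did not pass for any of the 40 (0% against 0%; 4 genes, or 10%, at an unadjusted p under 0.05, against 8.51% of loci), the nearest being Map1lc3a (0.27 ± 0.09, adjusted p = 0.341, limma).

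**Figure D4:**
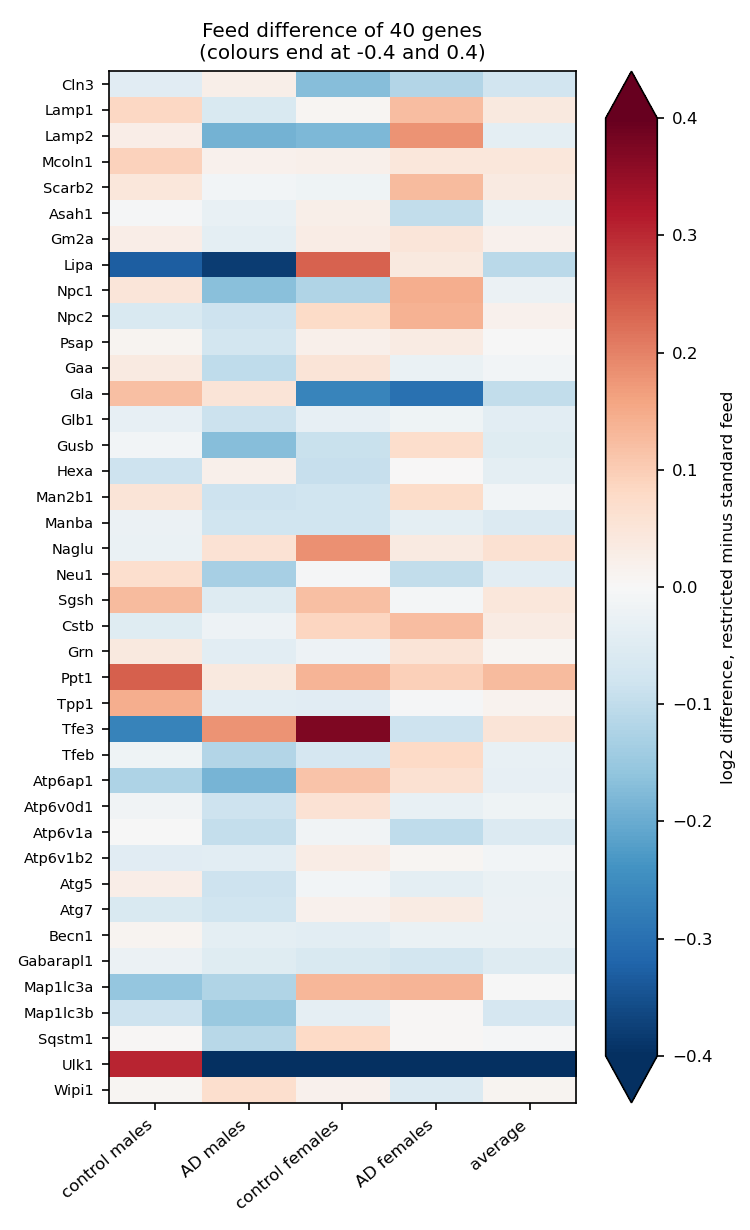
Log2 difference between restricted and standard feed for the 40 genes in control males, AD males, control females and AD females and on average (red, higher on restricted feed; blue, lower). The colour scale ends at -0.4 and 0.4, which Ulk1 exceeds on the low side in all columns but control males; none of the cells passed the threshold.

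Between the sexes 19 of 40 genes passed, 3 higher and 16 lower in females (47.5%, against 51.0% of all loci, made up of 24.4% higher and 26.6% lower), so their share was near that of the table as a whole. Lower in females were 3 of 5 membrane proteins, 3 of 4 pump genes and 4 of 9 autophagy genes. The 4 smallest p were those of Atg5, Becn1, Asah1 and Atp6v1a. Atg5 was at 1.88 to 3.69 FPKM (median 2.65) in 43 males and 1.54 to 2.93 FPKM (median 2.21) in 42 females, and Becn1, part of the lipid kinase that starts the autophagosome membrane, at 106 to 169.6 FPKM (median 138) and 95.7 to 168 FPKM (median 119). Asah1 was at 30.4 to 45.7 FPKM (median 38.8) and 24.3 to 42.7 FPKM (median 34.6), and Atp6v1a at 412 to 811 FPKM (median 597) and 336 to 755.5 FPKM (median 526.4). The sexes overlapped for each. The log2 differences were -0.20 ± 0.03, -0.19 ± 0.03, -0.16 ± 0.03 and -0.20 ± 0.05, with adjusted p of 3.18e-07, 2.1e-06, 4.9e-05 and 0.000218 (limma). Higher in females were Map1lc3a (0.18), Naglu (0.16) and Tfeb (0.11; 0.71 to 2.14 FPKM, median 1.05, in males and 0.87 to 1.98, median 1.25, in females). The split depended on scaling: with FPKM as deposited 8 genes were higher and 9 lower, and with equal total FPKM 8 and 10. Neuron markers were lower in females for 8 of 11 and higher for 1. Their sum was 7492 to 12890 FPKM (median 10023) in females and 8426 to 17768 FPKM (median 12196) in males. Endothelial markers were lower in females for 5 of 5 tested, microglia markers for 4 of 12 with 1 higher, and of the plaque-associated markers 6 of 13 were higher and 2 lower. The part of these cell types in the sex differences was not tested.

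Ulk1 and Lipa were read at separate levels rather than along a range. Ulk1 was at 1.27 to 3.81 FPKM in 19 mice and at 19.97 to 31.6 FPKM in the other 66, with none between. Mice of the lower level were 4 of 43 males and 15 of 42 females, and 5 of 43 on standard and 14 of 42 on restricted feed, at 6 of 11 in FADMR and 5 of 10 in FWTMR. Its sex difference (-0.84 ± 0.23, adjusted p = 0.00138, limma), its feed difference and its genotype differences are means over both levels. Lipa was at 0.266 to 0.351 FPKM in 3 mice (MWTMR 3, MADMR 8 and FWT 7) and at 6.31 to 12.7 FPKM in 82. FWT 7 enters the genotype difference of Lipa in females, where the medians were 8.24 FPKM in control and 9.09 FPKM in AD mice. Smaller gaps were those of the Atp6ap1 locus, at 49.4 to 65.6 FPKM in 4 mice and 95.4 to 164 FPKM in 81, and of Tfe3, spread from 6.34 to 25.8 FPKM in 21 mice and at 36.0 to 53.9 FPKM in 64. Ppt1 was at 13.7 to 20.5 FPKM in 45 mice and at 24.5 to 42.9 FPKM in 40, a gap no wider than those that set single mice apart for Map1lc3b, Atg7 or Hexa. Gla was more than 3 times below its group median in 5 mice. The cause of these levels was not tested.

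**Figure D5:**
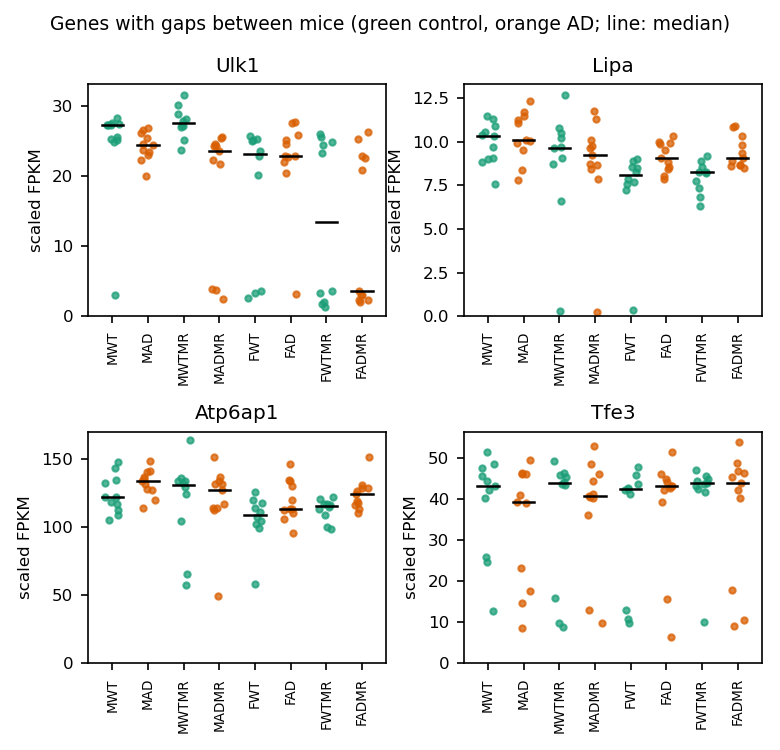
Scaled FPKM of Ulk1, Lipa, the Atp6ap1 locus and Tfe3, 1 point per mouse, in the 8 groups, with the group median as a line. Ulk1 lies either at or below 3.81 FPKM (19 mice) or at or above 19.97 FPKM (66 mice).

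Other genes of the pathway were read from a separate list. Of 75 further lysosome and autophagy genes tested (79 listed), 3 were higher and 0 lower in AD mice averaged over sex and feed (4% against 1.70%), among them the membrane protein Cd63 (0.20 ± 0.04, adjusted p = 0.00109, limma) and Gpnmb (0.40 ± 0.11, adjusted p = 0.0425, limma), a glycoprotein of phagocytes. In females 2 passed (2.67%, below the 3.13% of all loci), Cd63 (0.26 ± 0.06) among them, and in males 0 (0% against 0.497%). On restricted feed in females 2 passed (2.67% against 1.34%), among them Tcirg1, a pump subunit (0.35 ± 0.09, adjusted p = 0.0273, limma). Of 10 cathepsins tested, which degrade proteins in the same organelle, 6 were higher in AD females (60% against 3.13%) and 1 in AD males (10% against 0.497%). Ctsk and Ctss had the same mean (44.3 FPKM), as genes of a joined locus do, so these counts can hold 1 locus more than once.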

How the data were processed

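Hippocampal RNA of 85 mice was sequenced on the BGI-500 platform after phenol-chloroform extraction, per the labels' protocols. The authors deposited FPKM values for all libraries in a single table. Trimmomatic 0.38, HISAT2 and StringTie 1.3.4d, and the build GRCm38.p6, are named by the submitters' processing notes, without order or settings. The table's 56090 rows, of which 14100 had no symbol and 1713 named several genes, were joined by symbol into 53890 loci. FPKM keep no counts, so depth is unknown and no counting interval is given.

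Here, libraries were divided by median-of-ratios factors (0.885 to 1.13), loci at or above 1 FPKM in 10 or more libraries were retained (21141), and log2(scaled FPKM + 1) was fitted with limma 3.58.1 in R 4.3.3 (8 group means, trend, robust; 77 residual degrees of freedom), with Benjamini-Hochberg adjustment over all loci and a threshold of 0.05. Differences are on this scale, which understates changes of low genes. Correlations used residuals from group means and 100000 permutations (numpy 2.4.6), two-sided. The fit was tested on simulated data, with 100 loci shifted by a log2 difference of 0.2 and 100 by 0.4. In the genotype average 50% and 79% of these passed, in females 21% and 61%, and in FAD against FWT 6% and 30%. A difference of this size that did not pass may therefore have been missed. Alternatives were another pseudocount, filters, scalings, no trend, library weights, a replicate block, tissue or microglia covariates, only the groups compared, single-gene rows and leaving out each library.

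The labels give separate mice. Their replicate numbers did not pair samples: same-numbered libraries of different groups had a mean residual correlation of -0.0096 (281 pairs). The members and lists were chosen with earlier results of these data known. Genes were named in full when past the threshold in a genotype, feed or interaction comparison, when among the 4 smallest p for feed or sex, and always for Grn, Tfeb, Map1lc3a, Map1lc3b and Gabarapl1. The strain's full allele name and the values of 1 further pathway gene are not reported here.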

Additional observations from a re-analysis of the deposited data

Results flagged for a closer look

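In the groups of 10 mice, 11 of 120 sets of values of a gene in a group had a highest or lowest mouse set apart from the others by more than 0.466 of the whole range, which chance gives in about 1 in 20. In control males on restricted feed, Lipa was at 0.3052 FPKM in replicate 3 (others 6.63 to 12.7), Gaa at 191.238 in replicate 4 (others 104 to 139), Neu1 at 62.2014 in replicate 6 (others 81.0 to 98.3), Manba at 9.8743 in replicate 4 (others 5.91 to 7.61), Tfeb at 1.421 in replicate 3 (others 0.877 to 1.14) and Map1lc3b at 108.019 in replicate 11 (others 133 to 154). In control females on standard feed, the Npc2 locus was at 17.5048 FPKM in replicate 4 (others 10.0 to 13.9), Lipa at 0.3512 in replicate 7 (others 7.25 to 9.03) and the Atp6ap1 locus at 58.2399 in replicate 9 (others 99.0 to 126). In control females on restricted feed, Manba was at 6.9825 FPKM in replicate 1 (others 5.33 to 6.00) and Tfe3 at 9.9429 in replicate 9 (others 41.8 to 46.9).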

How the results depend on the processing

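Of 194 counts of genes that passed under the 12 alternatives other than leaving out a library, 171 stayed within 1.5 times the reported count. FAD against FWT gave 0 in place of 1 with a pseudocount of 0.1, no filter, a filter at 5 FPKM, the replicate block, the tissue covariates, the microglia covariate and only the groups compared, and 2 with library weights. Shares of loci were 0.109% to 0.426% in the fits that gave 0 and 6.48% with weights, against 0.549%. FADMR against FWTMR gave 3 in place of 5 with FPKM as deposited, 3 with the replicate block, 2 with the tissue and 0 with the microglia covariate. Of all loci 1.25%, 1.08%, 0.62% and 0.071% passed in that order, against 1.34% in the reported fit. AD females over both feeds gave 4 in place of 7 with the replicate block, 4 with the tissue and 0 with the microglia covariate. The loci that passed were 1.6%, 0.908% and 0.114% in that order, against 3.13%. The genotype average gave 5 in place of 3 with library weights, 1 with the tissue covariates and 1, lower, with the microglia covariate. For all loci the shares were 5.17%, 0.833% and 0.833%, against 1.70%. Library weights also gave 2 in AD males (5%, against 5.17% of loci in that fit) and 1 in MADMR against MWTMR (2.5% against 4.71%), all lower, 6 for the difference between the sexes (15% against 12.1%; 1 with the tissue covariates) and 1 for the interaction of sex and feed (2.5% against 1.38%), all in place of 0. Leaving out each library gave 3 to 4 for the average, 0 to 2 for FAD against FWT, 2 to 6 for FADMR against FWTMR, 4 to 9 for AD females, 17 to 20 between the sexes, 0 to 3 for the difference between the sexes, and 0 to 0 elsewhere. Turned in sign were the sex difference of Tpp1 with FPKM as deposited (0.0024) and, with the microglia covariate, Hexa in FADMR against FWTMR (-0.0048) and Npc2 in AD females (-0.0040). The cause of the changes was not tested, apart from fewer libraries in the fits of only the groups compared. With FPKM as deposited, 22 in place of 27 genes passed with microglia and 26 in place of 28 with neuron markers. The replicate numbers do not pair the mice, 7 of 85 libraries being closest to their own number, and the replicate block left the average at 3. Spread between mice and unknown depth limit differences as small as these.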
